A study of Mus musculus with 12 samples.

Results

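The keratin-associated protein genes of the mouse (Krtap) were followed in the epidermis of dorsal skin. A gene entered if its symbol was Krtap followed by a digit, if it could be matched through its Entrez number, and if it reached 1 FPKM (fragments per kilobase of transcript, scaled to the mapped reads of the library) in at least 1 library of the postnatal day 36 (P36) table. This gave 53 genes in 26 subfamilies, out of 19392 genes with values at P36 and out of 56 Krtap genes in the RefSeq table. Krtap13, whose highest value was 0.3 FPKM, had values and did not enter, and the next genes above it were Krtap27-1, Krtap20-2 and Krtap9-5, with highest values of 12.6, 14.6 and 21.2 FPKM. Of the 53 genes, 49 also had values at 6 months. Krtap5-1, Krtap9-5, Krtap31-1 and Krtap31-2 had none, and their 6-month levels were not analysed here.

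Keratin-associated proteins form the matrix between the keratin filaments of the hair fibre. They are small proteins made late in the differentiation of the hair shaft, above the dividing matrix cells of a growing follicle, and they link to the hair keratins through disulfide bonds. By composition they are divided into high-sulfur, ultra-high-sulfur and high glycine-tyrosine proteins, and most of their genes consist of 1 exon and lie side by side in a few chromosomal clusters. Resting follicles make no new shaft, so most of these genes are taken here as a readout of hair production more than of the surface epidermis. That reading may not hold for Krtap3-2 at 6 months, which stood at 146, 111 and 230 FPKM in the control libraries. In the same libraries the family without Krtap3-2 and Krtap3-3 summed to 45.5, 0.65 and 1.41 FPKM. Which cells gave the Krtap3-2 signal was not tested.

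Each of 4 groups held 3 libraries from C57BL/6 mice. All animals carried floxed alleles of Vdr, which encodes the vitamin D receptor, and of Med1, which encodes a Mediator subunit that serves as its coactivator. The controls were K14 Cre-/- and the double knockouts (DKO) K14 Cre+/-, so the recombinase was driven in keratin 14 expressing basal keratinocytes. Cells that descend from these inherit the deletion, and deletion in cells of the peeled sheet with another origin was not part of the design. Both genotypes were sampled at P36 and at 6 months. The series addresses how loss of both factors alters the epidermis. No label states that the 3 libraries of a group came from different mice. P-values therefore rest on the spread between these libraries, which may be technical.

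Vdr did not follow the genotype labels. At P36 it stood at 68.0 ± 4.16 FPKM in control and 83.5 ± 6.06 FPKM in DKO (SD, n = 3; limma adjusted p = 0.0573), and at 6 months at 40.5 ± 11.6 and 48.1 ± 5.49 FPKM (limma adjusted p = 0.302). Med1 was lower at P36, at 13.8 ± 0.504 against 9.11 ± 1.11 FPKM (limma adjusted p = 0.0083), and did not pass the test at 6 months, at 14.2 ± 2.21 against 11.6 ± 0.256 FPKM (adjusted p = 0.13). A gene's FPKM value reads all its exons together, so it does not check the deleted part, and the groups are called here by their labels. The libraries summed to between 513455 and 554382 FPKM at P36 and between 446617 and 529023 FPKM at 6 months. Read depth is not given with these values and could not be recovered from them, so no counting interval is given.

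At P36 the Krtap genes were lower in the libraries labelled DKO, by unequal amounts: the median change was negative in each of the 26 subfamilies, and in 16 of them at least 1 gene passed the test. Of 52 Krtap genes tested, 27 fell and 0 rose at a limma adjusted p under 0.05, against 5.32% of all 12660 genes called lower and 18.0% called higher. At an unadjusted p under 0.05, 43 were lower and 0 higher. These counts include Krtap31-2, which reached 1 FPKM in control only, so its fall is no support. With median-ratio scaling the calls over all genes shifted from 77.1% to 58.9% higher, and 30 Krtap genes were called, all of them lower. The log2 change on the log2(FPKM + 1) scale was negative for all 52, from −0.26 for Krtap21-1 to −4.28 for Krtap31-1, with a median of −1.45, where the median of all genes tested was 0.09. It remained negative for all 52 after median-ratio scaling and after totals were computed without keratin and Krtap genes. The summed level of the 53 genes was 24144, 10744 and 21403 FPKM in control replicates 1, 2 and 3, or 4.52%, 2.09% and 3.86% of all FPKM. In the libraries labelled DKO it was 9717, 5442 and 5653 FPKM, or 1.85%, 0.999% and 1.09%. The sums of the groups did not overlap, but control replicate 2 was close to DKO replicate 1 and far below the other controls. In bulk epidermis, fewer hair shaft cells and less RNA per cell cannot be told apart.

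**Figure D1:**
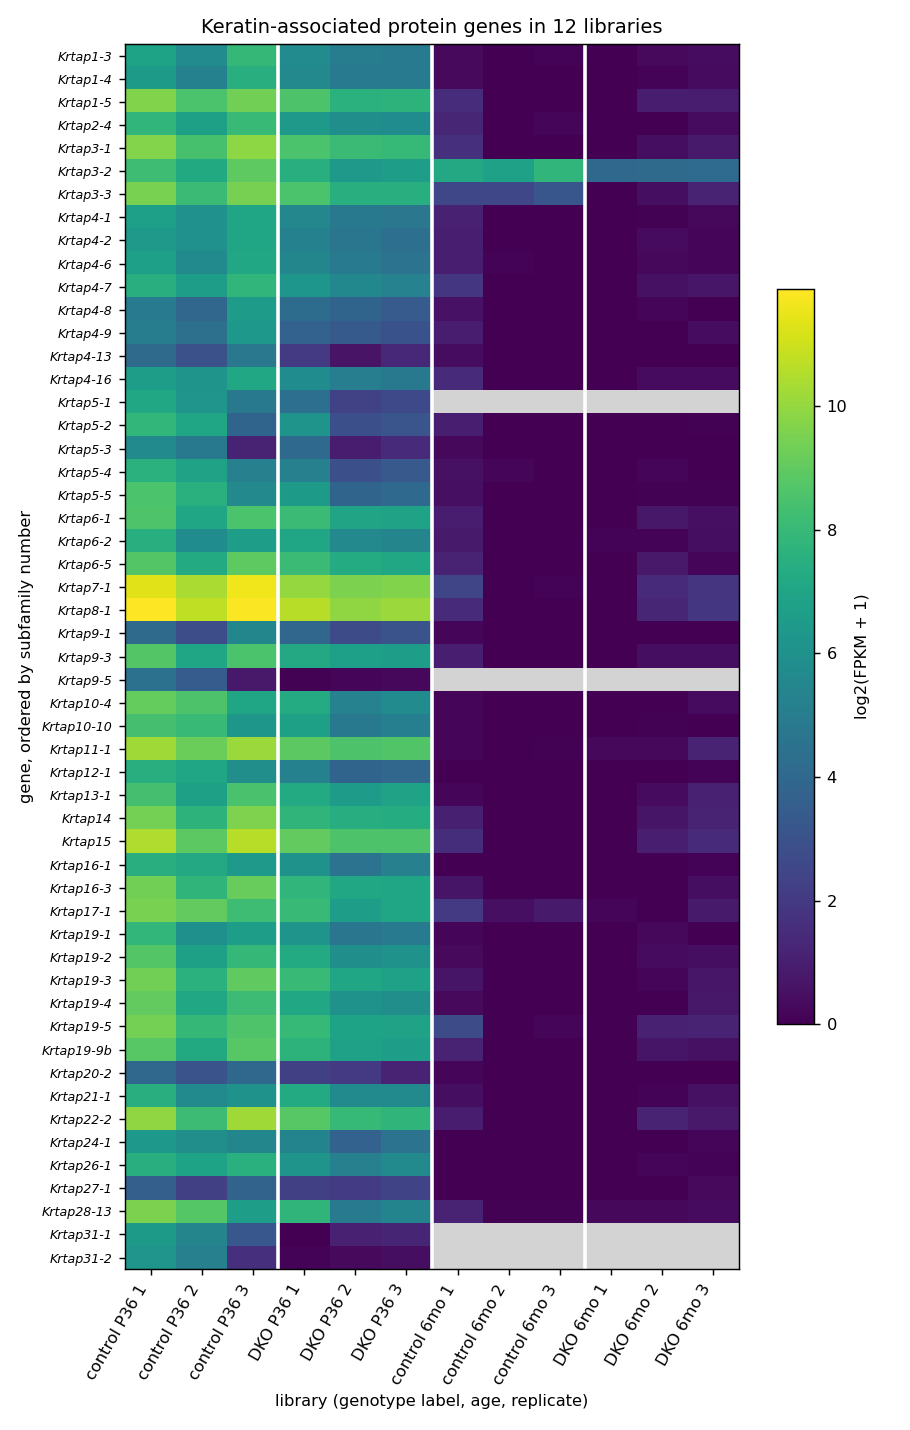
Level of each of the 53 genes (rows, by subfamily number) in each of the 12 libraries (columns), as log2(FPKM + 1), with white lines between the groups and grey where a gene has no value at 6 months. Most genes are high in the P36 controls and less so in the P36 libraries labelled DKO, and at 6 months Krtap3-2 alone is above 100 FPKM in the 3 controls.

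The count of calls changed with single libraries. Without control replicate 1, 12 genes were called lower, and without DKO replicate 2 or DKO replicate 3, 9 were called in each case; no gene was called higher in any of these. The 9 genes called with all libraries and in every fit that left out 1 library were Krtap4-1, Krtap4-2, Krtap4-7, Krtap4-13, Krtap4-16, Krtap12-1, Krtap20-2, Krtap26-1 and Krtap31-1. In 22 of the 53 genes every control library lay above every library labelled DKO. Over all genes tested that share was 9.63%, and among the tested Krtap genes it was 21 of 52. Both Krtap counts include Krtap31-2, and the 22 also Krtap9-5. These 2 genes reached 1 FPKM in control only, so their separation is no support. Krtap21-1, Krtap6-2 and Krtap9-1 were called neither with all libraries nor in any fit without 1 library.

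**Figure D2:**
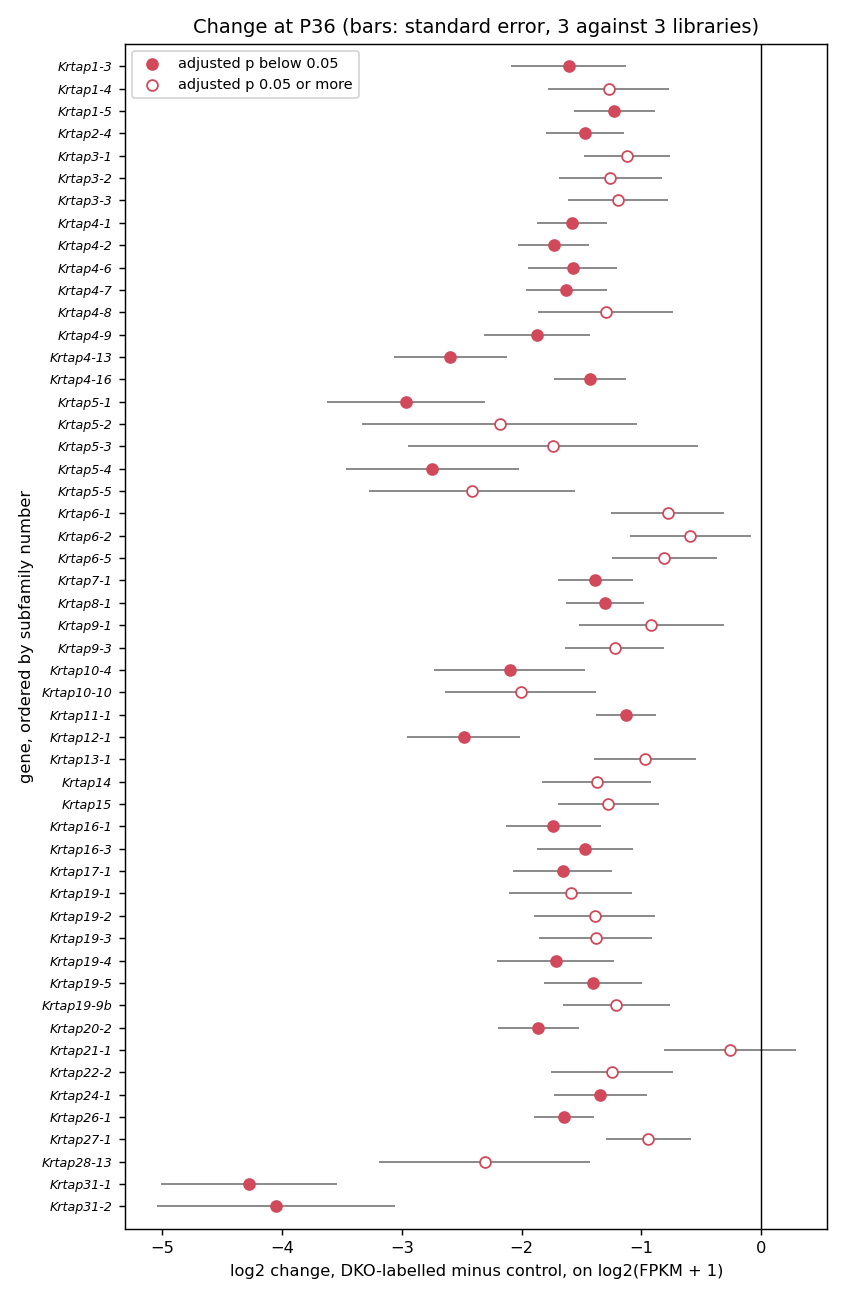
Log2 change at P36 (libraries labelled DKO minus control, on log2(FPKM + 1)) for the 52 tested genes, with bars for the standard error and filled points for a limma adjusted p under 0.05. All points lie left of 0, those of Krtap31-1 and Krtap31-2 at −4.28 and −4.05, and those of Krtap6-1, Krtap6-2, Krtap6-5 and Krtap21-1 closest to 0.

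Among the high-sulfur subfamilies, genes of Krtap1 and Krtap2 fell. In Krtap1, 2 of 3 genes were called. The most abundant, Krtap1-5, had 798, 365 and 667 FPKM in the 3 controls and 380, 195 and 203 FPKM in the libraries labelled DKO (log2 change −1.23, SE 0.34, limma adjusted p = 0.0337). The highest DKO library lay just above the lowest control, so its groups overlapped. Krtap2-4 did not overlap, with 226, 106 and 257 FPKM against 86.7, 60.5 and 53.5 FPKM (−1.47, SE 0.33, adjusted p = 0.0142). As much as 43.8% of its 50-base stretches also occur in neighbouring unnamed gene models, so reads can be shared with them.

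The 3 Krtap3 genes, which encode high-sulfur proteins and lie side by side, were lower at P36 without passing the test. Krtap3-1 stood at 828, 342 and 947 FPKM in control and 373, 279 and 252 FPKM in the libraries labelled DKO (−1.12, limma adjusted p = 0.0584). Krtap3-2 had 295, 151 and 491 against 183, 83.9 and 102 FPKM (−1.26, adjusted p = 0.0703), and Krtap3-3 had 734, 276 and 692 against 367, 172 and 183 FPKM (−1.20, adjusted p = 0.0751). In each of the 3 genes DKO replicate 1 was above control replicate 2. Since these genes separate at 6 months, their upstream sequences are shown from 250 bases before the annotated transcription start to the base before it (RefSeq, GRCm38.p6, minus strand of chromosome 11: chr11:99566631-99566880 for Krtap3-1, chr11:99556854-99557103 for Krtap3-2 and chr11:99550864-99551113 for Krtap3-3), read 5′ to 3′ on the gene's strand with the TATA-box letters TATAAA in capitals.
Krtap3-1: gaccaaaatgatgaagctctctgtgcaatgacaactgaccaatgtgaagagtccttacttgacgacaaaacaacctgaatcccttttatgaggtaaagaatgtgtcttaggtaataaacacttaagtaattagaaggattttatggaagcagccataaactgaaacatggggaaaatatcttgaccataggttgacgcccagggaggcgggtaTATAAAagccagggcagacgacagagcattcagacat
Krtap3-2: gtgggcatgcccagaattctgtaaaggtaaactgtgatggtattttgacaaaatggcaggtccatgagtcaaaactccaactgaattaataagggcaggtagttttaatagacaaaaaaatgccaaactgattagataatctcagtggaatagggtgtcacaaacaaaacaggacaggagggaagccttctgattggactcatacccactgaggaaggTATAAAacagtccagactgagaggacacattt
Krtap3-3: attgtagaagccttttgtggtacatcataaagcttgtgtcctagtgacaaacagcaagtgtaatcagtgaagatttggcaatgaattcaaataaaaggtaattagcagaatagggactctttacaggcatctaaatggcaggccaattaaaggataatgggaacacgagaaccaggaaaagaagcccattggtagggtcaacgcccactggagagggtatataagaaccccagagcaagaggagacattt
Aligned end to end with gaps allowed, the 250-base windows were 57.0% identical between Krtap3-1 and Krtap3-2, 55.6% between Krtap3-1 and Krtap3-3 and 58.7% between Krtap3-2 and Krtap3-3. The identity of unrelated windows aligned in this way was not computed, so these values do not show how related the 3 windows are.

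Other high-sulfur genes fell by different amounts. Krtap12-1 was among the largest falls, with 183, 127 and 58.8 FPKM in control and 36.5, 13.3 and 14.0 FPKM in the libraries labelled DKO (−2.48, SE 0.47, limma adjusted p = 0.00754). Its neighbours Krtap10-4 and Krtap10-10 had a similar change with a wider spread. Krtap10-4 had 538, 375 and 126 FPKM against 158, 37.5 and 52.6 FPKM (−2.10, SE 0.63, adjusted p = 0.046), where DKO replicate 1 lay above control replicate 3, and Krtap10-10, at −2.01, did not pass the test (adjusted p = 0.0541). More than 40% of the 50-base stretches of both Krtap10 genes recur in the other or in unnamed gene models (44.4% for Krtap10-10, 42.0% for Krtap10-4). Among the models that share sequence with Krtap10-10 is Gm11559, which lies beside Krtap9-1 in another cluster.

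Krtap11-1, at 1171, 598 and 1096 FPKM against 479, 376 and 403 FPKM, fell with the smallest standard error of all 52 genes (−1.13, SE 0.25, limma adjusted p = 0.014). Krtap26-1 had the lowest adjusted p of the family, with 179, 118 and 185 FPKM against 69.6, 35.8 and 48.9 FPKM (−1.65, SE 0.25, adjusted p = 0.00329). Both shared no 50-base stretch with another gene. Krtap24-1, another gene of the same cluster, fell from 80.2, 58.5 and 43.1 to 40.8, 12.4 and 22.3 FPKM (−1.34, adjusted p = 0.0405).

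Krtap13-1, Krtap14, Krtap15 and Krtap27-1 were lower without passing the test. Krtap15 was the most abundant of them, with 1437, 472 and 1562 FPKM in control and 520, 375 and 383 FPKM in the libraries labelled DKO (−1.27, limma adjusted p = 0.0633). Krtap14 had 678, 203 and 785 against 223, 171 and 163 FPKM (−1.37, adjusted p = 0.0654), Krtap13-1 had 329, 108 and 353 against 154, 92.3 and 116 FPKM (−0.97, adjusted p = 0.15), and Krtap27-1, the lowest of the family by highest value, had 11.2, 3.83 and 12.6 against 3.77, 3.38 and 4.39 FPKM (−0.94, adjusted p = 0.0959). In all 4 genes control replicate 2 lay at or within the DKO range while the other controls lay above it. Both Krtap16 genes fell, but their shared number does not place them in 1 class. Krtap16-3 lies beside Krtap19-9b and shares 1.09% of its 50-base stretches with the high glycine-tyrosine genes Krtap19-1 and Krtap19-2. Krtap16-3 had 668, 223 and 569 FPKM against 225, 139 and 126 FPKM (−1.47, adjusted p = 0.0327), and Krtap16-1 changed by −1.73 (adjusted p = 0.0168).

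Of the ultra-high-sulfur genes, the Krtap4 subfamily held the most calls: 7 of its 8 members fell, with a median log2 change of −1.60, and in the same 7 the groups did not overlap. Krtap4-7, the most abundant, had 175, 98.2 and 229 FPKM in control and 75.3, 45.5 and 37.4 FPKM in the libraries labelled DKO (−1.63, SE 0.34, limma adjusted p = 0.0108). Krtap4-13, a gene of low level, had 16.4, 6.85 and 25.9 FPKM against 3.05, 0.57 and 1.60 FPKM (−2.60, SE 0.47, adjusted p = 0.00639). However, 81.3% of its 50-base stretches recur in other Krtap4 genes or in gene models beside them, so its value depends on how shared reads were divided. The exception among the 8 was Krtap4-8, at 28.3, 14.3 and 90.6 FPKM against 17.3, 13.2 and 9.64 FPKM (−1.30, adjusted p = 0.145).

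The 5 Krtap5 genes changed more and were more variable, with a median of −2.41 and 2 calls of 5. Their summed level was 981, 534 and 123.5 FPKM in control and 230, 31.0 and 39.4 FPKM in the libraries labelled DKO. Krtap5-1 had 137, 73.7 and 27.5 FPKM against 19.4, 3.87 and 5.19 FPKM (−2.97, SE 0.66, limma adjusted p = 0.0143) and was the only Krtap5 gene whose groups did not overlap. Krtap5-4 had 195, 116 and 34.8 against 35.6, 6.45 and 8.92 FPKM (−2.75, SE 0.72, adjusted p = 0.0282). Krtap5-5, with 364, 187 and 46.9 FPKM against 89.5, 13.3 and 15.7 FPKM, did not pass (−2.41, SE 0.86, adjusted p = 0.082). Within each genotype the range was wide: replicate 3 was the lowest control for all 5 genes, and replicate 1 the highest DKO library for all 5. Between 7.30% and 60.6% of their 50-base stretches recur in other gene models of the cluster, the most in Krtap5-1.

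Krtap17-1, the other ultra-high-sulfur gene with a call, had 720, 518 and 295 FPKM in control and 267, 97.8 and 132 FPKM in the libraries labelled DKO (−1.66, SE 0.41, limma adjusted p = 0.0224), and shared no 50-base stretch. Krtap9-3 had 422, 126 and 369 FPKM against 147, 103 and 101 FPKM and did not pass (−1.22, adjusted p = 0.0701). Krtap9-1 did not pass either (−0.92, adjusted p = 0.334). Krtap9-5 differed from both in its pattern over libraries, with 21.2, 10.01 and 0.74 FPKM in control and 0.05, 0.16 and 0.21 FPKM in the libraries labelled DKO. It reached 1 FPKM in only 2 libraries and so was not tested.

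The high glycine-tyrosine genes included the most abundant genes of the family and those with the smallest changes. Krtap8-1 had the highest level of any Krtap gene in all 6 P36 libraries, with 3821, 1744 and 3694 FPKM in control and 1579, 956 and 1088 FPKM in the libraries labelled DKO (−1.30, SE 0.33, limma adjusted p = 0.0234). Krtap7-1, its neighbour, followed with 2647, 1327 and 3175 FPKM against 1045, 748 and 799 FPKM (−1.39, SE 0.31, adjusted p = 0.0154). In both genes the groups did not overlap. Krtap20-2, at 14.6, 7.27 and 14.6 FPKM against 3.78, 3 and 1.21 FPKM, fell by 1.86 on the log2 scale (SE 0.34, adjusted p = 0.0062).

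The 6 Krtap19 genes had a median of −1.40 and 2 calls, and none of them had groups that did not overlap. Krtap19-3, the most abundant, had 656, 191 and 507 FPKM in control and 254, 126 and 111 FPKM in the libraries labelled DKO (−1.38, SE 0.47, limma adjusted p = 0.071). Krtap22-2 was similar, with 965, 287 and 1180 FPKM against 448, 248 and 219 FPKM (−1.25, adjusted p = 0.125).

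The smallest changes of the family were also in high glycine-tyrosine genes. Krtap21-1 had 179, 50.6 and 68.9 FPKM in control and 152, 48.8 and 48.5 FPKM in the libraries labelled DKO (−0.26, SE 0.55, limma adjusted p = 0.788), and its direction turned to 0.27 without control replicate 1, and to 0.01 without DKO replicate 2 and without DKO replicate 3. Krtap6-2, its neighbour, changed by −0.59 (adjusted p = 0.465), and Krtap6-1 and Krtap6-5 by −0.78 and −0.81 (adjusted p = 0.287 and 0.237). For Krtap6-5 the values were 419, 153 and 488 FPKM in control and 273, 157 and 135 FPKM in the libraries labelled DKO. In the 3 Krtap6 genes and Krtap21-1, DKO replicate 1 lay above control replicate 2, so the groups overlapped.

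**Figure D3:**
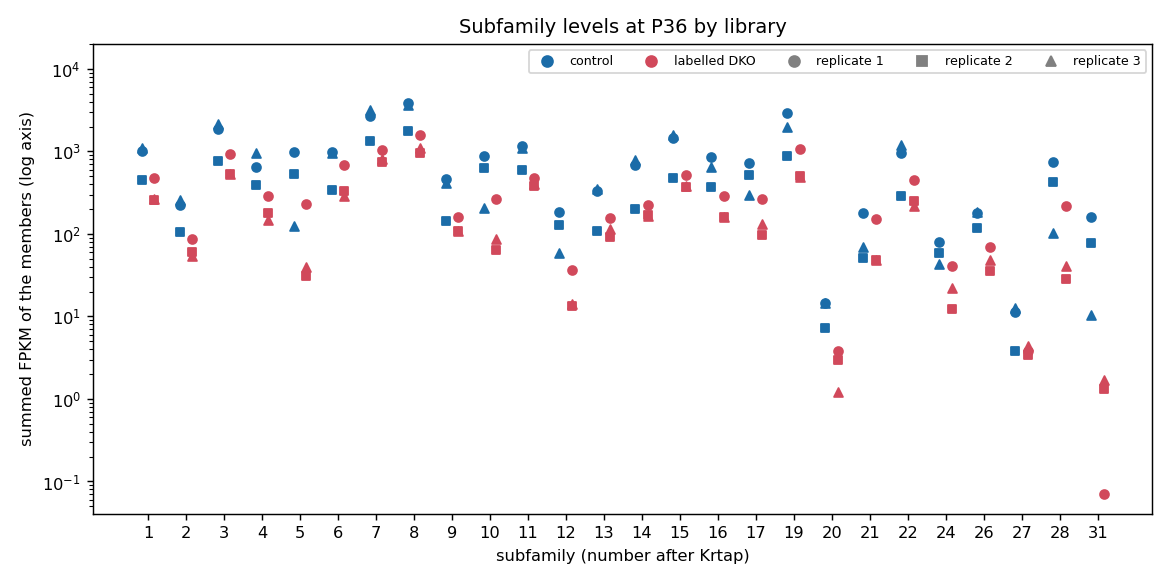
Summed FPKM of the members of each of the 26 subfamilies in the 6 P36 libraries, on a log axis, with blue for control, red for libraries labelled DKO and a marker shape for each replicate number. Replicate 2 (square) is the lowest control in most subfamilies and replicate 3 (triangle) in subfamilies 5, 10, 12, 17, 24, 28 and 31.

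Krtap31-1 and Krtap31-2 had the largest changes of all 52 genes. Krtap31-1 had 88.2, 42.0 and 8.47 FPKM in control and 0, 1.10 and 1.37 FPKM in the libraries labelled DKO (−4.28, SE 0.74, limma adjusted p = 0.0050). Krtap31-2 had 72.6, 34.8 and 2.05 FPKM against 0.07, 0.23 and 0.34 FPKM (−4.05, SE 0.99, adjusted p = 0.0214). The lowest control was about 6 times the highest DKO library in both genes, but within control the values spanned more than 10 times. Krtap31-2 passed the filter on low values only through its controls, so that it could be tested only where it differed, and it was called in 0 of the 3 leave-one-out fits in which it could be tested. DKO replicate 1, which was the highest DKO library for 49 of the 53 genes, was the lowest for these genes and for Krtap9-5.

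Krtap31-1, Krtap31-2 and Krtap9-5 follow each other on chromosome 11, with 1 unnamed gene model between the first pair, and had the same order of libraries. Their 60 bases before the transcription start are shown because the 3 genes shared a pattern over libraries that their subfamily names do not (RefSeq, GRCm38.p6, plus strand; chr11:99907860-99907919, chr11:99936231-99936290 and chr11:99948364-99948423), with TATAAA in capitals.
Krtap31-1: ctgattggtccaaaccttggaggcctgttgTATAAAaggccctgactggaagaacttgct
Krtap31-2: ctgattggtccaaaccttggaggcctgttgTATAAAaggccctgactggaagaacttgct
Krtap9-5: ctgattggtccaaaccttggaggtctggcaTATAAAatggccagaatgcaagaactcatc
The stretch was identical in Krtap31-1 and Krtap31-2 over all 60 bases, and Krtap9-5 matched both at 47 of 60 bases (78.3%). The transcripts of Krtap31-1 and Krtap31-2 share 39.5% and 41.5% of their 50-base stretches, with each other or with the gene model between them, so reads may be shared, whereas Krtap9-5 shares none.

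The P36 controls split the family by which library was lowest. In 38 genes control replicate 2 was lowest, and in 15 genes control replicate 3: the 5 Krtap5 genes, Krtap9-5, Krtap10-4, Krtap10-10, Krtap12-1, Krtap16-1, Krtap17-1, Krtap24-1, Krtap28-13, Krtap31-1 and Krtap31-2. Control replicate 1 was lowest in 0 genes and highest in 29, and replicate 3 was highest in the other 24. Krtap28-13 shows the second pattern clearly, with 743, 427 and 102 FPKM in control and 220, 28.4 and 40.6 FPKM in the libraries labelled DKO (−2.31, SE 0.88, limma adjusted p = 0.1). Among the 15 genes the highest control was a median of 5.59 times the lowest (range 1.86 to 44.0), and 9 of the 14 tested were called, with a median log2 change of −2.25. Among the other 38 the corresponding ratio was 3.21 (range 1.57 to 7.16), 18 were called, and the median change was −1.34. These 2 sets were formed from the values themselves, so their difference is given as a description. The 9 called include Krtap31-2, which reached 1 FPKM in control only.

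The same pattern can be read by position. By order in RefSeq, the 53 genes fall into 5 clusters, separated by more than 1000000 bases or by chromosome. Control replicate 3 was the lowest control for all 5 genes of the Krtap5 cluster, all 3 of the Krtap10 and Krtap12 cluster and Krtap28-13, which stands alone. It was lowest for 5 of 22 genes in the cluster that runs from Krtap3-3 to Krtap17-1, and these 5, Krtap31-1, Krtap31-2, Krtap9-5, Krtap16-1 and Krtap17-1, stand together at its end. It was lowest for 1 of 22 genes in the cluster that runs from Krtap24-1 to Krtap11-1, and that gene is Krtap24-1, at its end. The Krtap16 genes lie in both of these clusters: Krtap16-1 had its lowest control in replicate 3 (177, 143 and 82.1 FPKM) and Krtap16-3 in replicate 2. The median changes of the clusters were −2.41 for Krtap5, −2.10 for Krtap10 and Krtap12, −1.57 for the first large cluster (14 of 21 tested called) and −1.32 for the second (9 of 22). The 14 include Krtap31-2, which reached the FPKM threshold in control only.

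The hair keratins, which form the filaments that the Krtap proteins embed, fell by a similar median amount. Of 15 hair shaft keratins tested at P36, 14 fell and 0 rose, with a median of −1.18, and of 7 keratins of the inner root sheath 7 fell, with a median of −1.27. The shaft keratin Krt32 went from 144 ± 19.98 to 56.7 ± 16.4 FPKM (SD, n = 3; limma adjusted p = 0.00357). Of 10 other structural genes of shaft and sheath 8 fell, among them Tchh, which encodes trichohyalin, from 4565 ± 914 to 1256 ± 84.2 FPKM (limma adjusted p = 6.09e-04). When each P36 library was scaled to its hair shaft keratins, a setting chosen after the data were seen, the median Krtap change became −0.17 and 13 Krtap genes were called. In that fit 94.2% of all 12884 genes were called, 93.8% higher and 0.396% lower. Of the 13 Krtap genes, 12 were lower relative to the keratins: Krtap31-1 (−3.31), Krtap31-2 (−3.33; tested only through its controls, so its call is no support), Krtap5-1, Krtap5-2, Krtap5-3, Krtap5-4 and Krtap5-5 (−0.79 to −1.77), Krtap4-13 (−1.64), Krtap12-1 (−1.22), Krtap28-13 (−1.02), Krtap10-4 (−0.81) and Krtap20-2 (−0.79). Krtap21-1 was higher relative to them (1.02). This scaling moved the median of all genes to 1.25, so these values describe Krtap genes against keratins only. Its calls do not measure each gene's own spread. Krtap5-3 and Krtap20-2 had nearly the same change and limma adjusted p there (0.0203 and 0.0165), with standard errors of 1.21 and 0.34 in the main fit. Of the 12, Krtap5-2, Krtap5-3, Krtap5-5 and Krtap28-13 were not called in the main fit.

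The regulators of the hair matrix and shaft fell by less. Of 23 tested at P36, 16 fell and 0 rose, with a median of −0.81. Hoxc13, a homeobox factor known to act on hair keratin and Krtap genes, had 101, 129 and 127 FPKM in control and 75.5, 59.9 and 56.7 FPKM in the libraries labelled DKO (−0.89, SE 0.14, limma adjusted p = 0.0036). Control replicate 2, the lowest in 38 Krtap genes, was the highest control for Hoxc13. Foxn1, the factor missing in nude mice, went from 51.2 ± 1.67 to 27.3 ± 3.76 FPKM and Lef1, the Wnt effector of hair matrix cells, from 34.3 ± 6.76 to 17.6 ± 2.48 FPKM (SD, n = 3; both called by limma, adjusted p = 0.0014 and 0.0049). Of 10 cell cycle genes 0 fell and 0 rose by limma (median 0.14), also at an unadjusted p under 0.05.

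Other cell types of the peeled sheet moved with the genotype label at P36 as well. Of 10 skeletal muscle markers tested, of 12 listed, all 10 were higher in the libraries labelled DKO, and the mean log2(FPKM + 1) over the list ran from 0.93 to 1.47 in control and from 3.02 to 4.77 in DKO. Acta1, the skeletal muscle actin, had 3.3, 2.89 and 6.59 FPKM against 163, 98.7 and 37.7 FPKM, and no marker of that list was at 0 in a P36 library. Of 10 dermal fibroblast markers 5 were higher and 0 lower (list mean 5.38 to 6.05 against 6.39 to 6.87), and of 10 interfollicular keratinocyte markers 4 were higher and 1 lower (8.62 to 9.04 against 9.27 to 9.69). Of 9 melanocyte markers 5 were lower and 0 higher (4.63 to 5.45 against 3.87 to 4.70), and of 6 dermal papilla markers 0 passed limma's test, with 1 lower at an unadjusted p under 0.05 (1.37 to 2.04 against 1.32 to 1.80). The part of these cell types in the Krtap differences was not tested.

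At 6 months Krtap levels were near 0 in both genotypes, apart from Krtap3-2 and Krtap3-3. Only 6 of the 49 genes with values passed the filter on low values, and 2 of these 6 fell while 0 rose, where 18.2% of all 12594 genes were called lower and 23.2% higher; at an unadjusted p under 0.05 the Krtap counts were the same 2 and 0. Krtap3-2 had 146, 111 and 230 FPKM in control and 14.95, 16.4 and 16.7 FPKM in the libraries labelled DKO (−3.20, SE 0.24, limma adjusted p = 2.42e-04). Every control was at least 6 times any DKO library. Krtap3-3 had 4.75, 4.71 and 7.97 FPKM against 0, 0.35 and 1.18 FPKM (−2.21, SE 0.31, adjusted p = 0.00203). Both were called in every fit that left out 1 library. Krtap3-1, the third gene of the row, had 2.09, 0 and 0 FPKM in control and 0, 0.38 and 0.84 FPKM in the libraries labelled DKO and was not tested. The 3 genes share some sequence, 28.9% of the 50-base stretches of Krtap3-2 and 41.3% of those of Krtap3-3. Krtap3-3 stood far below Krtap3-2 in every 6-month library, so part of its few reads could stem from Krtap3-2. The 2 calls may therefore not be separate, and how shared reads were divided was not tested.

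**Figure D4:**
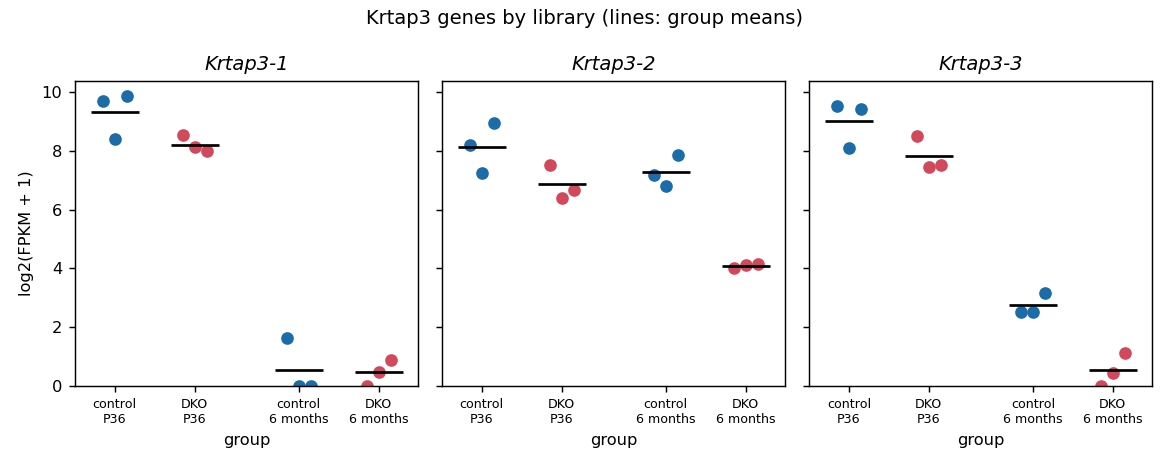
Levels of Krtap3-1, Krtap3-2 and Krtap3-3 as log2(FPKM + 1) in each library of the 4 groups (points) with the group mean (line). Krtap3-2 in the 6-month controls, at 111 to 230 FPKM, reaches the range of the P36 libraries, while Krtap3-1 does not exceed 2.09 FPKM in any 6-month library.

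The other tested Krtap genes did not pass at 6 months: Krtap7-1 changed by 0.19, Krtap8-1 by 0.57, Krtap15 by 0.31 and Krtap19-5 by −0.20 (limma adjusted p from 0.447 to 0.855). Krtap8-1, the leading gene at P36, was at 1.71, 0 and 0 FPKM in control and 0, 1.39 and 2.69 FPKM in the libraries labelled DKO. Without Krtap3-2 and Krtap3-3, the other 47 genes summed to 45.5, 0.65 and 1.41 FPKM in control and 0.67, 14.4 and 23.1 FPKM in the libraries labelled DKO. The low signal was thus in control replicate 1 and in DKO replicates 2 and 3, and the genotypes overlapped. Control replicate 1 was the highest control for 42 of the 49 genes, another 4 were listed at 0 in all 3 controls, and 37 were listed at 0 in control replicates 2 and 3. The inner root sheath keratins Krt25 and Krt71 were highest in control replicate 1 (1.70 and 4.10 FPKM) and DKO replicate 3 (4.59 and 6.15 FPKM), and the list mean of these keratins was 1.01 and 1.74 in those libraries, against 0.21 to 0.61 in the other 4. Of the hair shaft keratins only Krt32 passed the filter, and it was lower, at 3.10, 3.98 and 5.19 against 0.76, 0.58 and 0.97 FPKM (−1.51, adjusted p = 0.0013). Dermal papilla markers were lower too, 2 of 2 tested, with a list mean of 0.99 to 1.19 in control and 0.19 to 0.48 in DKO, and interfollicular keratinocyte markers were lower in 6 and higher in 2 of 10 (10.5 to 11.1 against 10.01 to 10.23). The part of these cell types in the Krtap3-2 difference was not tested. Melanocyte markers were lower in 2 of 7, cell cycle genes higher in 2 of 10, and other shaft and sheath genes lower in 1 and higher in 1 of 6. Of 7 skeletal muscle and 10 dermal fibroblast markers 0 passed limma's test (0 and 1 lower at an unadjusted p under 0.05). Of 21 regulators 11 were lower and 2 higher, with Hoxc13 at 7.86 ± 0.926 and 8.43 ± 2.44 FPKM (SD, n = 3; 0.06, limma adjusted p = 0.815).

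With age, the family fell in both genotypes. The genes were chosen by their P36 values, which favours a fall with age, so the counts below are a description and no support. Of the Krtap genes with values at P36, the choice left out only Krtap13. Of the 49 genes compared, 6 passed the filter on low values in the 6-month fit. From P36 to 6 months 48 of 49 Krtap genes fell in control, with a median log2 change of −7.03, where 63.1% of all 13280 genes were called, 27.9% lower and 35.3% higher. In the libraries labelled DKO 48 of 49 fell as well, with a median of −5.72, where 60.0% of all genes were called, 32.0% lower and 28.0% higher. The exception in control was Krtap3-2, which had a mean of 312 ± 171 FPKM at P36 and 162 ± 61.5 FPKM at 6 months (−0.85, limma adjusted p = 0.083). In the libraries labelled DKO, Krtap3-2 fell from 122.8 ± 52.7 to 16.0 ± 0.947 FPKM (−2.78, adjusted p = 1.28e-04), and the exception was Krtap5-3 (−2.14, adjusted p = 0.085). The P36 and 6-month values come from separate tables and age goes with the table, so age and processing run cannot be told apart.

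The genotype difference at 6 months was set against that at P36 in a fit of all 12 libraries. Of 49 Krtap genes, 15 differed, 1 in the negative and 14 in the positive direction. Of all 13280 genes 34.9% were called, 21.1% in the negative and 13.8% in the positive direction. The negative one was Krtap3-2, whose difference between genotypes was larger at 6 months than at P36 (−1.93, SE 0.56, limma adjusted p = 0.021). The other 14 had been called lower in the libraries labelled DKO at P36, and their 6-month values lay between 0 and 1.24 FPKM in both genotypes, where no difference of the P36 size could appear. Krtap26-1 is an example (1.74, SE 0.31, adjusted p = 0.0017), with 0, 0 and 0 FPKM against 0, 0.13 and 0.07 FPKM at 6 months. The count moved with single libraries: it was 8 without control replicate 1 at P36, without DKO replicate 2 or 3 at P36, without control replicate 2 or 3 at 6 months, or without DKO replicate 2 at 6 months. It was 9 without DKO replicate 3 and 10 without DKO replicate 1 at 6 months, 23 without DKO replicate 1 at P36, 24 without control replicate 1 at 6 months, 16 without control replicate 3 at P36 and 29 without control replicate 2 at P36. Krtap3-2 was the only negative call in each of these fits.

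The promoters of the family had a feature in common that the choice of genes did not use. RefSeq (GRCm38.p6) gave a promoter, from 250 bases before to 50 after the start, for 48 of the 53 genes. TATAAA was present on either strand in 39 of the 48 (81.3%), against 13.6% of 32851 promoters of the same length. On the gene's own strand and starting 45 to 20 bases before the transcription start, the usual place of a TATA box, it was present in 30 of the 48 (62.5%), against 2.14% of all. It started most often at base −31 (10 genes) or −30 (6 genes). The 60 bases before the start are shown for 6 genes, chosen so that each class and the most abundant genes are seen (RefSeq, GRCm38.p6, minus strand; chr7:142297135-142297194 for Krtap5-1, chr11:99993995-99994054 for Krtap17-1, chr11:99644090-99644149 for Krtap4-7, chr16:89487953-89488012 for Krtap8-1, chr16:89571184-89571243 for Krtap11-1 and chr16:88878039-88878098 for Krtap19-3), with TATAAA in capitals.
Krtap5-1: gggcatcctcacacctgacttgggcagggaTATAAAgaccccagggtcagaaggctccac
Krtap17-1: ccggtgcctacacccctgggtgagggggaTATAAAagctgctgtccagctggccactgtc
Krtap4-7: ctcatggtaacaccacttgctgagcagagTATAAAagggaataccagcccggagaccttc
Krtap8-1: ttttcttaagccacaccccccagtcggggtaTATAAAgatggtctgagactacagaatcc
Krtap11-1: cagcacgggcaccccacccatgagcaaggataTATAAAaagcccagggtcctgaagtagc
Krtap19-3: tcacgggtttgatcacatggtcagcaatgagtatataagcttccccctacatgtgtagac
Krtap19-3 has no TATAAA in this stretch and so no capitals. The members of a subfamily arose from each other and share upstream sequence, so their promoters are not independent.

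**Figure D5:**
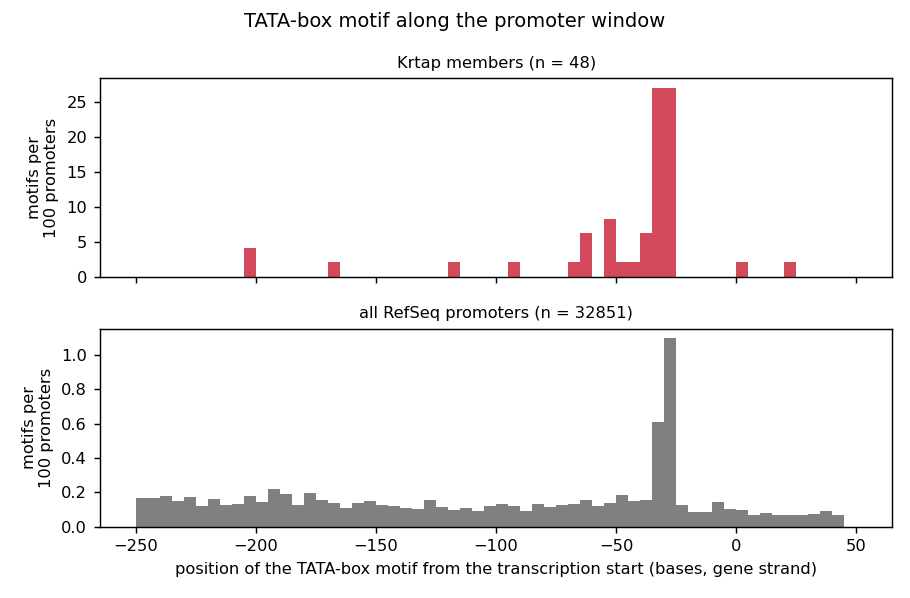
Start of the TATAAA letters on the gene's strand along the promoter window, in bases from the transcription start, as motifs per 100 promoters in bins of 5 bases, for 48 Krtap promoters (top) and 32851 RefSeq promoters (bottom, with its own axis). The Krtap matches pile up just before the start, where 30 of the 48 promoters have one.

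The median P36 change was −1.58 in the 29 tested Krtap genes with TATAAA in that place and −1.38 in the 18 without. Only these exact letters were searched, so the 18 are not all without a TATA box. Krtap19-3 and Krtap3-3, counted among them, have the variant tatataag in the stretches shown. Sites of LEF1 and TCF factors, read as CTTTG and then a base that is A or T at each of the next 2 places, on either strand, were in 18 of the 48 (37.5%), against 16.9% of all promoters. Sites read as those of HOXC13 (TTAAT or its variant TTTAT, then any base, then 2 bases that are each A or G, on either strand) were in 25 of the 48 (52.1%), against 18.9% of all, and in 5 of these 25 genes a site overlapped a TATA box. The vitamin D response element was searched only as a perfect direct repeat of AGGTCA with any 3 bases between the copies. It was in 0 of the 48 on either strand and in 2 of the 32851. A form so rare over all promoters cannot show whether these genes have or lack such elements. None of these shares, nor those of TATAAA, was matched for base composition, so an excess beyond composition was not tested. These matches describe the letters of the windows only.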

How the data were processed

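RNA of peeled dorsal epidermis was depleted of ribosomal RNA with RNase H, primed with random hexamers and read as 50-base single ends on a BGISEQ-500, per the labels' protocols. HISAT2 2.1.0 and RSEM 1.2.8 are named, per the submitters' processing notes, which list human genome builds for these mouse samples, so no coordinate is taken from the files. The authors deposited FPKM values with 2 decimals in 1 table per age; the age of a column comes from its table, genotype and replicate number from its header. Strand use in counting is not stated in these sources. FPKM spacing gave no usable depth (56.2% to 93.8% of 13 to 21 low values per library lay near whole multiples, within 0.2 of 1 read).

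Genes were named through Entrez numbers. limma 3.58.1 (R 4.3.3; lmFit, eBayes with trend) was fitted to log2(FPKM + 1) over genes that reached 1 FPKM in 3 or more libraries, for each age on its 6 libraries, and for age and interaction contrasts on all 12 over genes in both tables. P-values are two-sided, adjusted by Benjamini-Hochberg over all genes tested, with a threshold of 0.05. The log2(FPKM + 1) scale understates changes of low genes. The fits were tested on simulated data. With 3 against 3 libraries an exact permutation test cannot go below 0.1, so none was used. Shared sequence was counted as 50-base stretches of GENCODE transcripts also found in another gene. Promoters are from RefSeq GRCm38.p6; identities are from Biopython 1.88 alignments.

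Alternatives were another pseudocount, no filter or a stricter one, 2 scalings, a constant variance prior, a replicate block, a joint fit and leaving out each library; scaling to hair shaft keratins was added after seeing the data. Members and gene lists were chosen with earlier results of these data known. Named with values were the most abundant gene of each subfamily, the 8 largest and 4 smallest changes at P36, all calls at 6 months and up to 3 genes of each list with the smallest p; Krtap3-2 and Krtap3-3 at P36, Krtap4-8, Krtap9-1, Krtap9-5, Krtap10-10, Krtap16-1, the genes named for their library pattern, Hoxc13, Lef1, Krt25, Krt71 and Acta1 were named after their values were seen.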

Additional observations from a re-analysis of the deposited data

Results flagged for a closer look

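The difference between genotypes differed between the ages in 15 Krtap genes, by a test of the difference itself (limma interaction contrast over 12 libraries, adjusted p under 0.05). They were 15 of 49 tested, where 34.9% of all 13280 genes were called, so the count over both directions is no higher than that over all genes. By direction, 14 of the 15 were positive, where 13.8% of all genes were called positive and 21.1% negative. Values are the log2 difference between libraries labelled DKO and control at 6 months minus that at P36. Krtap3-2 had −1.93: it was the Krtap gene with the highest level at 6 months, and its genotypes lay further apart there than at P36. The other 14 had positive values, at levels near 0 FPKM in both genotypes at 6 months, where no difference of the P36 size could appear, so their values restate the P36 difference. Among ultra-high-sulfur genes these were Krtap4-1 (1.32), Krtap4-2 (1.59), Krtap4-9 (1.70), Krtap4-13 (2.46) and Krtap5-4 (2.57). Among high-sulfur genes they were Krtap24-1 (1.40), Krtap11-1 (1.60), Krtap1-3 (1.72), Krtap26-1 (1.74), Krtap16-1 (1.79), Krtap10-4 (2.13) and Krtap12-1 (2.53). The high glycine-tyrosine genes were Krtap20-2 (1.80) and Krtap19-4 (1.87).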

How the results depend on the processing

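The count of 27 Krtap genes lower at P36 became 43 with the replicate number as a block and 18 with no filter on low values, was 12 lower and 1 higher (13 in all) after scaling to the hair shaft keratins, and ran from 9 to 38 when 1 library was left out; the cause was not tested. Deviations of same-numbered libraries were not alike over all genes (correlation 0.13, −0.06 and −0.12 at P36, −0.06, 0.03 and 0.18 at 6 months). With 3 libraries per group these correlations cannot show whether the numbers pair the libraries. At 6 months the count of 2 became 1 where at least 5 FPKM was asked for, since Krtap3-3 was then not tested, and stayed at 2 with the block and in every fit without 1 library. The 15 genes whose genotype difference changed with age became 7 with a pseudocount of 0.1, 8 with no filter and 24 with the block, and ran from 8 to 29 without 1 library. The 48 genes lower with age ran from 48 to 49 in control and from 47 to 49 in DKO. Krtap21-1 at P36 ran from −0.80 to 0.27 without 1 library and turned to 0.27 without control replicate 1, 0.01 without DKO replicate 2 and 0.01 without DKO replicate 3. Median-ratio scaling moved the median of all genes at P36 from 0.09 to −0.03 and gave 54.7% of the age-dependent genotype differences as positive, against 39.5%. Totals without keratin and Krtap genes gave 37.3% of 6-month calls as higher, against 56.0%, and 27.8% positive age-dependent differences. Read depth is unknown, so 6-month values under 1 FPKM cannot be given a counting error.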
